A study of Mus musculus with 40 samples.

Results

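Mm00472168_m1 and Mm00484110_m1 are 2 of the 224 TaqMan assays measured in mouse colonic mucosa, each of them a PCR with its own fluorescent probe. They were picked by ID because of how their levels stood in the 4 groups of the study, with the conventional samples high for Mm00472168_m1 and low for Mm00484110_m1. Levels in the groups are therefore given as a description, without a test. Tests are given for what the choice did not use directly: the difference between the 2 bacterial strains and the relation of the 2 assays among samples of 1 group. The levels after both strains did enter the choice, so the test between the strains is not wholly independent of it. The files pair no assay ID with a gene. The working name of the pair, cytochrome P450 assays, could not be checked here, so the assays are called by their IDs and no sequence is shown.

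As background on the family named in that label, cytochrome P450 enzymes are haem proteins, mostly of the endoplasmic reticulum, that oxidise drugs, steroids, fatty acids and other lipids. Gut epithelium and liver both make them, and several are under the control of nuclear receptors that sense bile acids and foreign compounds. Gut bacteria modify bile acids and many compounds from food, which is why such enzymes are often measured in germ-free and colonised animals.

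The 40 samples fell into 4 groups of 10. The control mice were germ-free, that is, free of microbes. Mice mono-associated with Escherichia coli CEC and mice mono-associated with Escherichia coli Nissle, a strain used as a probiotic, had been colonised for 21 days, and conventional mice carried a full microbiota for a time that the labels do not give. The sources used here do not give mouse strain, age or sex. According to the series' design text, mice contributed like amounts of RNA to pools, while 40 samples are listed, so the p-values cover the spread from sample to sample alone, and that spread may be technical. The table holds threshold cycles (Ct), the PCR cycle at which a well's signal crosses a threshold, and a Ct lower by 1 stands for roughly double the template. Relative expression on the log2 scale was taken as the median Ct of a sample, over the 203 assays that never had a Ct of 40, minus the Ct of the assay. In colonic mucosa, more cells of a type and more RNA per cell cannot be told apart.

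Both assays gave a measured Ct in all 40 samples, none of them filled in or undetermined. Raw Ct lay between 15.60 and 25.63 for Mm00472168_m1 and between 18.51 and 23.55 for Mm00484110_m1, and sample medians lay between 21.57 and 24.27. The sample medians of conventional samples averaged 21.96 ± 0.288 cycles and those of CEC samples 22.72 ± 0.838 (SD, n = 10 each), with germ-free and Nissle samples between them. Some samples stood apart from their group. Conventional replicate 5 lay within the germ-free range for both assays. For Mm00484110_m1, at 2.42, this rested on germ-free replicate 10 at 2.03, since the next lowest germ-free sample was at 2.43. In that assay replicate 5 of the conventional group was within the CEC and Nissle ranges as well. Over the 151 other assays measured in all samples, however, it was closer to the mean of the other conventional samples (root mean square distance 0.769) than to the germ-free mean (0.961). CEC replicates 6 and 8 had late sample medians, 23.79 and 24.27 cycles, and replicate 6 lay at least 2.40 from the mean of any group, its own included. Nissle replicates 4 and 5 were closer to the germ-free mean (0.613 and 0.675) than to the mean of the other Nissle samples (0.865 and 0.880). By the same measure conventional replicate 4 was also nearest to germ-free, while germ-free replicate 20 and CEC replicates 2, 5 and 10 were nearest to Nissle. CEC replicates 6 and 8 were nearest to conventional, so that only 5 of 10 CEC samples were nearest to their own group. Many of the main results that rest on conventional replicate 5 or on CEC replicates 6 and 8 are given with and without them. For Nissle replicates 4 and 5 this holds only for CEC minus Nissle of Mm00472168_m1 and for the count of assays called between the strains.

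Mm00472168_m1 was highest in conventional mucosa and lowest after colonisation with 1 strain. Germ-free samples ran from 1.63 to 4.28 log2 units, with a median of 2.79. CEC samples ran from -1.84 to 2.25 with a median of 0.44, and Nissle samples from -0.02 to 2.29 with a median of 1.07. Conventional samples ran from 2.40 to 6.44 with a median of 5.59. All 10 CEC and all 10 Nissle samples lay below the germ-free mean, 9 and 7 of them below the lowest germ-free sample, while 9 of 10 conventional samples lay above the highest germ-free sample.

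In fold terms, Mm00472168_m1 stood 5.33-fold lower after CEC than in germ-free samples, with 0.41 ± 1.09 against 2.83 ± 0.705 log2 units (SD, n = 10 each) and a log2 difference of -2.41 (standard error 0.41). After Nissle it stood 3.26-fold lower, at 1.12 ± 0.779 and thus -1.71 from germ-free (standard error 0.33). The conventional mean was 5.995-fold higher than the germ-free mean, at 5.41 ± 1.14 and thus 2.58 above it (standard error 0.42). From lowest to highest the order of the means was thus CEC, Nissle, germ-free and conventional. The difference between CEC and Nissle did not pass the test given below. The CEC and Nissle means were 0.746 pooled SD apart, while Nissle and germ-free were 2.30 and germ-free and conventional 2.72 pooled SD apart.

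Set against the mono-associated mice, the conventional level of Mm00472168_m1 was 31.9-fold that of CEC and 19.6-fold that of Nissle, and all 10 conventional samples lay above all samples of either strain. Only 0.467% of the 214 assays compared had all conventional samples above all CEC samples, and 0.465% of 215 had them above all Nissle samples, which is this assay alone in each case. Without conventional replicate 5 these shares were 0.935% and 1.4%, and the folds were 40.3 and 24.7. The choice of the assay used these contrasts, so nothing is read from that count. Without CEC replicates 6 and 8 the CEC level was 0.81 ± 0.706, 4.04-fold below germ-free and 24.2-fold below conventional.

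A single sample set the spread of Mm00472168_m1 in conventional mucosa. Replicate 5 had a Ct of 19.92, where the other 9 conventional samples lay between 15.60 and 16.73, and at 2.40 log2 units it was within the germ-free range. The other 9 lay between 5.05 and 6.44, and without replicate 5 the conventional level was 5.75 ± 0.451 (SD, n = 9), 7.56-fold above germ-free. The ranges of the 2 groups then did not overlap, which held for 2.34% of 214 assays in this direction.

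**Figure D1:**
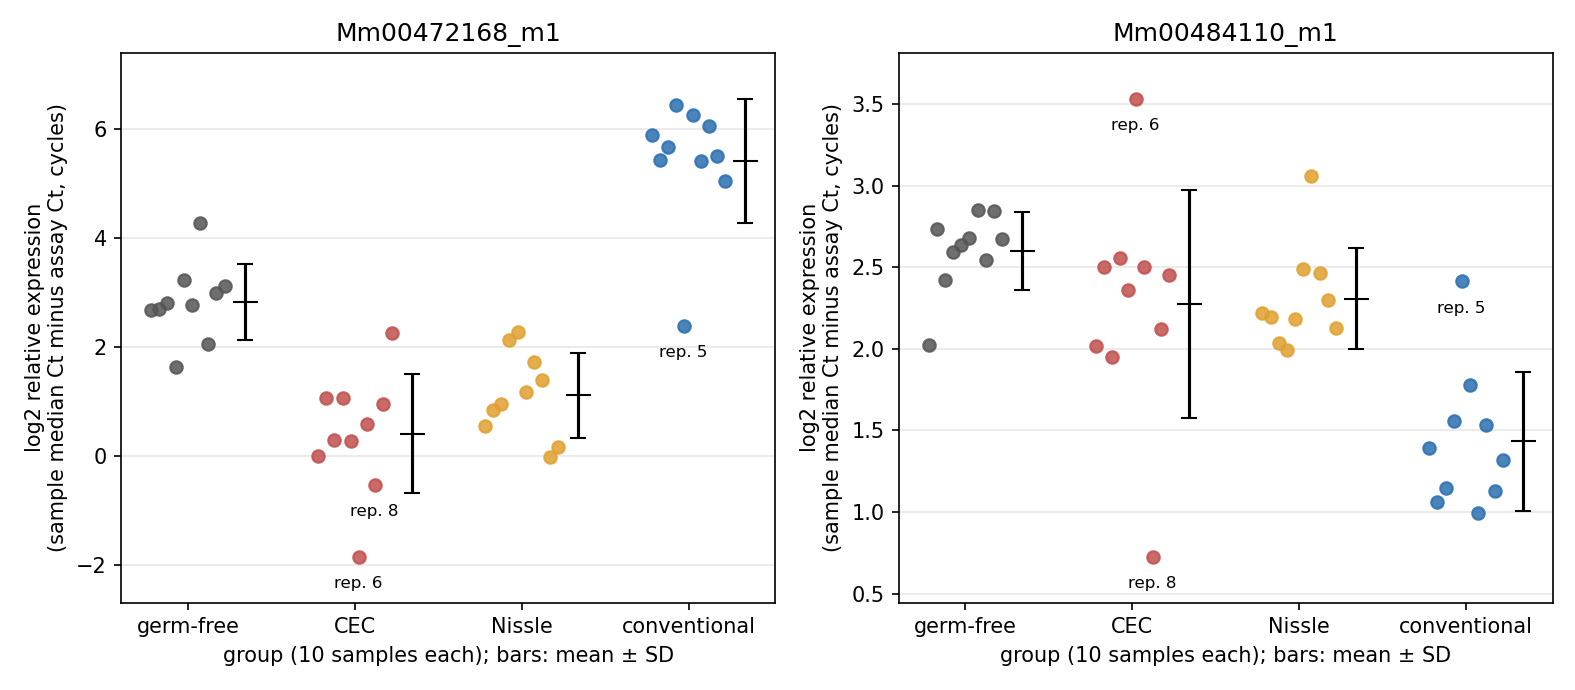
Log2 relative expression (sample median Ct minus assay Ct, in cycles) of Mm00472168_m1 on the left and Mm00484110_m1 on the right, with 1 point for each sample and bars for the mean ± SD of the 10 samples of a group. Conventional replicate 5 lies at 2.40 and 2.42, within the germ-free range in both panels, and the vertical axes differ in scale.

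Mm00484110_m1 was lowest in conventional mucosa, and the other 3 groups lay close together. Germ-free samples ran from 2.03 to 2.85 log2 units (median 2.66), CEC samples from 0.73 to 3.53 (2.41), Nissle samples from 1.99 to 3.06 (2.21) and conventional samples from 0.99 to 2.42 (1.36). Of the 10 conventional samples 9 lay below the lowest germ-free sample, and the same number lay below the lowest Nissle sample. The exception was again replicate 5, at 2.42. CEC samples spanned the conventional range, since CEC replicate 8, at 0.73, was the lowest of all 40 samples. Without CEC replicates 6 and 8, 9 of 10 conventional samples lay below the lowest CEC sample, and the CEC level was 2.31 ± 0.241 (SD, n = 8).

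The conventional mean of Mm00484110_m1 was 2.25-fold lower than the germ-free mean, with 1.43 ± 0.425 against 2.60 ± 0.24 log2 units (SD, n = 10 each) and a standard error of 0.15 on the difference of -1.17. It was 1.79-fold lower than after CEC (2.27 ± 0.699) and 1.83-fold lower than after Nissle (2.31 ± 0.31). CEC and Nissle stood 1.26-fold and 1.23-fold below germ-free. From lowest to highest the order was conventional, CEC, Nissle and germ-free. Neighbouring means were 1.45, 0.0623 and 1.06 pooled SD apart, so that CEC and Nissle could not be put in order.

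Without conventional replicate 5, Mm00484110_m1 stood 2.42-fold below germ-free in conventional samples, at 1.32 ± 0.264 (SD, n = 9), and the ranges did not overlap. That held for 1.87% of 214 assays in this direction. Against Nissle the ranges were also separate without this sample, as for 1.4% of 215 assays. With raw Ct in place of relative expression, conventional and CEC samples differed by -0.076, while the median assay was 0.57 higher in conventional samples, and Mm00484110_m1 relative to the median assay was -0.65, as with the sample median for normalizer.

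The 6 assays whose conventional and germ-free ranges came apart when conventional replicate 5 was left out included both Mm00472168_m1 and Mm00484110_m1. For each of the 2, replicate 5 was the only conventional sample inside the germ-free range. Leaving it out thus had to separate their ranges, and nothing is read from their place among the 6. With all 10 conventional samples 0.935% of assays had separate ranges with conventional higher and 0.467% with conventional lower, 3 assays in all, and leaving out any other conventional sample added at most 1 further assay. By Dixon's ratio at the 95% level, replicate 5 stood apart from the other conventional samples in 4 of the 180 assays measured in all 10 of them. The 4 included Mm00472168_m1. Replicates 2, 7, 8 and 9 stood apart in 1 to 3 assays.

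The difference between the 2 E. coli strains asks whether the kind of strain matters to these assays. It was not itself a contrast of the choice, but the choice used the level after each strain against germ-free samples. Its p-values are thus not wholly independent of the choice. The difference did not pass the test for either assay. For Mm00472168_m1 CEC minus Nissle was -0.71 log2 units with a standard error of 0.41 and a 95% interval from -1.55 to 0.13 (limma, adjusted p = 0.33), and 9 of 10 CEC samples lay below the Nissle mean. For Mm00484110_m1 it was -0.03 with a standard error of 0.21 and an interval from -0.45 to 0.38 (limma, adjusted p = 0.965), with 4 of 10 CEC samples below the Nissle mean. Of 214 assays tested, 3.27% were called between the strains, 2 higher and 5 lower after CEC, and both assays described here are among those not called. That background was itself unsteady, with 2 to 7 assays called when 1 sample was left out, 0 in a limma fit of the 2 strains alone (23 at an unadjusted p under 0.05) and 19 with sample quality weights. Without CEC replicate 6 the difference of Mm00472168_m1 was -0.46 (limma, adjusted p = 0.577), without CEC replicates 6 and 8 it was -0.31 (limma, adjusted p = 0.841), and without Nissle replicates 4 and 5 it was -0.44 (limma, adjusted p = 0.586).

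Taking the Ct of 1 assay from the Ct of the other within a sample needs no normalizer. The Ct of Mm00484110_m1 minus that of Mm00472168_m1 rises with the level of Mm00472168_m1 relative to Mm00484110_m1. Its mean was 0.23 ± 0.656 cycles without microbes (SD, n = 10), -1.86 ± 1.35 after CEC, -1.19 ± 0.789 after Nissle and 3.98 ± 1.43 in conventional samples. Among conventional samples, 9 lay between 3.72 and 4.88 and replicate 5 at -0.019. The SD of those 9 was 0.303, less than the 0.656 of all 10 germ-free samples, while with replicate 5 kept it was larger, at 1.43.

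The within-sample difference was below 0 in all 10 CEC samples and in 8 of 10 Nissle samples. Nissle replicates 4 (0.13) and 5 (0.10) fell inside the span of the germ-free samples, from -0.97 to 1.43, while the other 8 Nissle samples lay between -2.32 and -1.06. CEC replicate 6 lay at -5.38, far below the other CEC samples, the lowest of which was at -2.09. CEC and Nissle differed by -0.67 cycles in this measure (two-sided permutation test with 100000 resamples, p = 0.192, adjusted p = 0.287 over 3 such tests), and by -0.28 without CEC replicate 6. Without CEC replicates 6 and 8 the CEC mean was -1.50 ± 0.61 (SD, n = 8), -0.31 from Nissle (permutation p = 0.373).

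**Figure D2:**
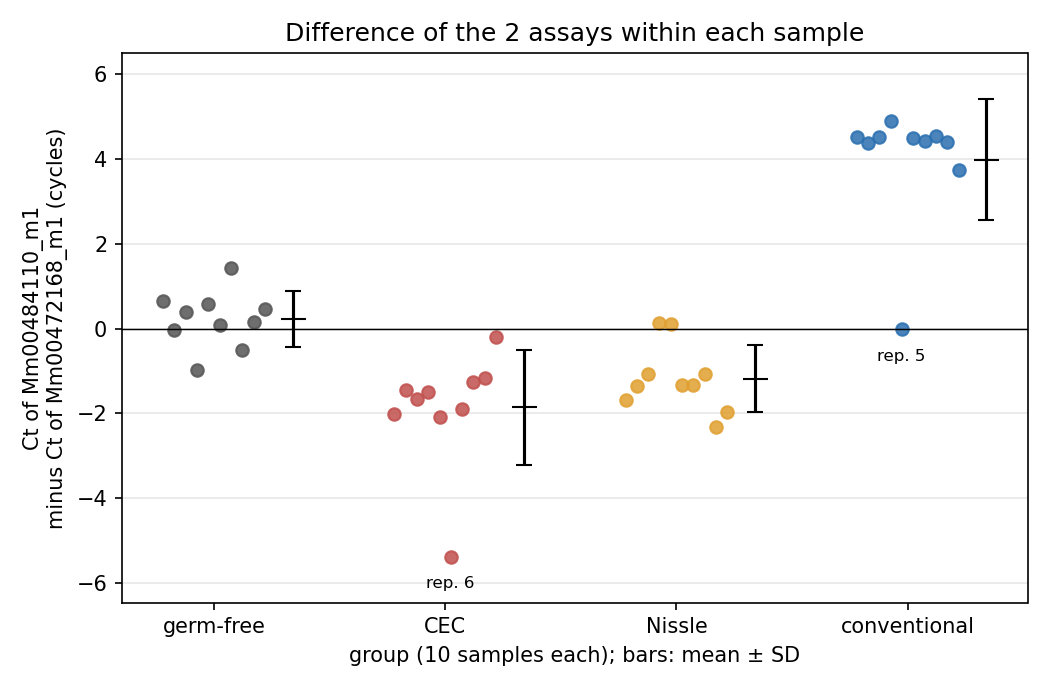
Ct of Mm00484110_m1 minus Ct of Mm00472168_m1 in each sample (vertical axis, in cycles) by group, with bars for the mean ± SD of 10 samples. Conventional samples lie between 3.72 and 4.88 except replicate 5 at -0.019, and CEC replicate 6 lies lowest, at -5.38.

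The 2 assays differed in how much they varied within a group. Among up to 203 assays without a Ct of 40, Mm00484110_m1 was one of the steadiest in germ-free samples, where only 6.4% of assays had a smaller SD than its 0.24, and in Nissle samples, where 5.91% had a smaller SD than its 0.31. In conventional and CEC samples it was near the middle, with 43.3% and 51.5% of assays below it. Its SD there was 0.264 without conventional replicate 5, in place of 0.425. Without CEC replicates 6 and 8 it was 0.241 in place of 0.699. The places of these smaller SDs among the assays were not computed. With all samples kept, Mm00472168_m1 was among the more variable assays in each group. Its SD was larger than that of 77.8% of assays among germ-free samples, 77.2% in CEC, 74.4% in Nissle and 90.6% among conventional samples. Without replicate 5 its conventional SD was 0.451 in place of 1.14, where the median assay had 0.459 with all conventional samples. Without replicates 6 and 8 its CEC SD was 0.706 in place of 1.09, where the median assay had 0.688 with all CEC samples.

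Over all 40 samples the relative levels of the 2 assays had a Pearson r of -0.51 and a Spearman rho of -0.24. This is a description without a p, because it holds the pattern between groups for which the assays were chosen, and because both values share the sample median. Without the conventional group, over the 30 germ-free, CEC and Nissle samples, r was 0.26 and rho 0.46.

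Within groups, where the group means play no part, the relation did not pass the test in any of them. Pearson r was 0.37 in germ-free samples (permutation test with 100000 resamples, two-sided, n = 10, p = 0.269, adjusted p = 0.673 over 5 relations), with a rho of 0.55 (permutation p = 0.105, adjusted p = 0.296). It was 0.17 in Nissle samples (permutation p = 0.669, adjusted p = 0.791), with a rho of -0.03 (p = 0.947 for the permutation test and after adjustment). In CEC samples r was -0.09 (permutation p = 0.791, also after adjustment) and rho 0.28 (permutation p = 0.427, adjusted p = 0.534). In conventional samples r was -0.59 (permutation p = 0.102, adjusted p = 0.51) while rho was 0.32 (permutation p = 0.367, adjusted p = 0.534). Over the deviations of all 40 samples from their group means r was -0.15 (permutation within groups, p = 0.428, adjusted p = 0.714) and rho 0.26 (permutation p = 0.119, adjusted p = 0.296).

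The sign of r within the CEC, Nissle and conventional groups rested on 1 sample each. In Nissle samples r was -0.14 without replicate 7. Without CEC replicate 6, r in CEC samples was 0.69 (exact permutation test, n = 9, adjusted p = 0.255), and without conventional replicate 5, r in conventional samples was 0.76 (exact permutation test, n = 9, adjusted p = 0.092). Without CEC replicates 6 and 8, r in CEC samples was 0.54 (exact permutation test, n = 8, adjusted p = 0.399), with a rho of 0.67. With the 2 samples farthest from the median of Mm00472168_m1 left out, r was 0.82 in CEC samples (exact permutation test, n = 8, p = 0.00841, adjusted p = 0.042) and 0.74 in conventional samples (exact permutation test, n = 8, p = 0.0352, adjusted p = 0.0586). The samples left out were CEC replicates 6 and 10 and conventional replicates 5 and 4, while CEC replicate 8 was kept. This removal used the values of 1 of the 2 assays being correlated. The p-values after it thus do not hold at face value, and nothing is read from them. In germ-free and Nissle samples r was 0.28 and 0.32 when treated the same way (exact permutation p = 0.445 and 0.444), and over all deviations it was 0.42 (permutation within groups, 38 samples, p = 0.021, adjusted p = 0.0525). Among the 9 conventional samples other than replicate 5, those higher in Mm00472168_m1 thus tended to be higher in Mm00484110_m1, opposite to the difference between the groups, although the relation did not pass after adjustment.

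**Figure D3:**
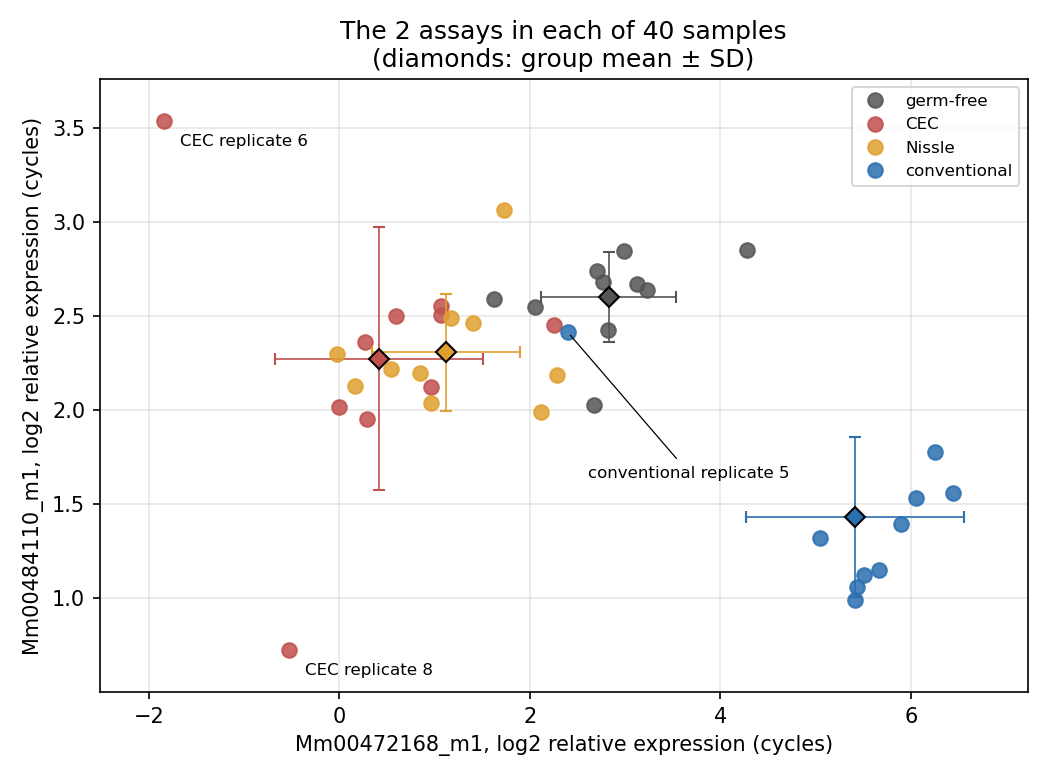
Log2 relative expression of Mm00472168_m1 (horizontal) against Mm00484110_m1 (vertical), in cycles, in each of 40 samples, with diamonds and bars for the mean ± SD of each group of 10. At the lower right lie the conventional samples other than replicate 5. Conventional replicate 5 lies within the germ-free range of both assays, at 2.40 and 2.42.

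Relative expression can carry the sample median Ct into both assays, so each assay was set against it within groups, 8 relations in all. For Mm00472168_m1 r was -0.65 in CEC samples (permutation test, n = 10, p = 0.0384, adjusted p = 0.278), with a rho of -0.35 (permutation p = 0.329, adjusted p = 0.716), and r was -0.17 without replicates 6 and 8, which had the most distant medians. No other relation had an unadjusted permutation p under 0.05.

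With all samples kept, many other assays were more like each of the 2 than they were like each other. By deviations from the group means, over 193 assays measured with them in at least 36 samples, Mm00484110_m1 ranked 147 in likeness to Mm00472168_m1, and Mm00472168_m1 ranked 150 in likeness to Mm00484110_m1. Closest to Mm00472168_m1 were Mm00490152_s1 with an r of 0.59, Mm00445212_m1 with 0.48 and Mm00549172_m1 with 0.44 (40 samples each), and farthest was Mm04209483_m1 with -0.49. Without CEC replicate 6 and conventional replicate 5 these were 0.45, 0.56, 0.30 and -0.23, and the r between the 2 assays themselves was 0.42 in place of -0.15. The low place of the pair in this order thus held with those 2 samples kept, and the order without them was not computed. The r with Mm00490152_s1 was 0.74 without microbes, 0.77 with CEC, 0.25 with Nissle and 0.47 with a full microbiota.

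Mm00484110_m1 had closer companions. Mm00661938_m1 came first with an r of 0.74 over 39 samples, followed by Mm00484970_m1 with 0.70 and Mm00491623_m1 with 0.65 (40 samples each), while Mm00432117_m1 was farthest, with -0.65 over 38 samples. Without the same 2 samples these were 0.62, 0.53, 0.37 and -0.62, beside the 0.42 between the 2 assays. Mm00661938_m1 followed Mm00484110_m1 in each group, with an r of 0.50 without microbes, 0.89 with CEC, 0.71 with Nissle and 0.48 with a full microbiota. Mm00484970_m1 and Mm00491623_m1 did so in the other groups but not in Nissle samples, where their r was -0.21 and -0.33. All these coefficients share the sample median and belong to assays picked as the most extreme of 193, so they carry no p.

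By plain relative expression, which includes the differences between groups, Mm00472168_m1 was most like Mm00445845_m1 (r = 0.72) and Mm01276696_m1 (r = 0.71) over 40 samples. Mm00445845_m1 averaged 2.31 ± 1.36 log2 units without microbes (SD, n = 10), -2.47 ± 1.30 with CEC, -2.004 ± 2.996 with Nissle and 2.68 ± 1.52 with a full microbiota. It thus stood low after both strains, like Mm00472168_m1, but its conventional and germ-free means were 0.37 apart, less than the SD of either group. Mm01276696_m1 averaged 7.85 ± 0.682 without microbes, 6.69 ± 0.765 with CEC, 7.26 ± 0.746 with Nissle and 8.24 ± 0.358 with a full microbiota. Its means thus had the same order as those of Mm00472168_m1. Mm00484110_m1 was most like Mm00491623_m1 (r = 0.80, 40 samples) and Mm00661938_m1 (r = 0.75, 39 samples). Within Nissle samples alone the r with Mm00491623_m1 was -0.33. Mm00491623_m1 averaged 2.98 ± 0.277 without microbes, 2.77 ± 1.10 with CEC, 2.47 ± 0.337 with Nissle and 1.59 ± 0.507 with a full microbiota. Mm00661938_m1 was likewise lowest in conventional samples, at 1.82 ± 0.435. Its means with CEC (2.97) and Nissle (2.93) were, however, above its germ-free mean of 2.48. Those of Mm00484110_m1 were below its germ-free mean.

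**Figure D4:**
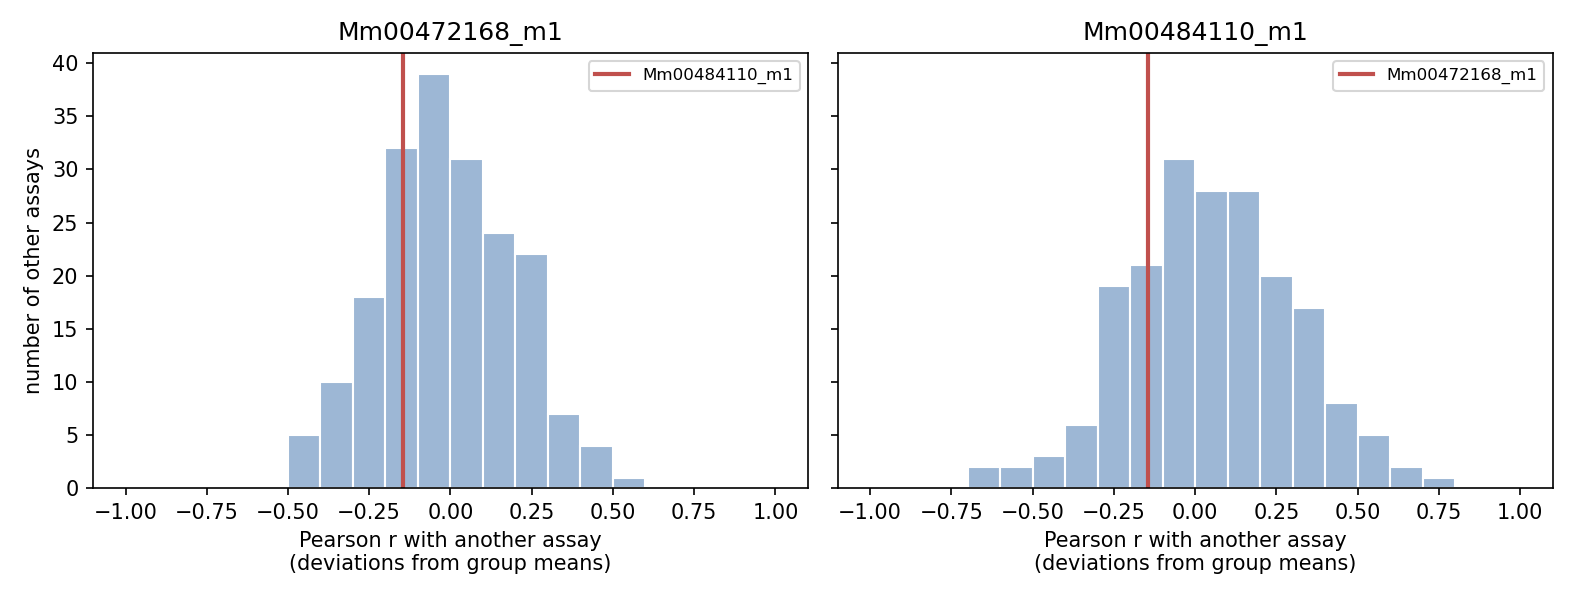
Number of other assays (vertical axis) by their Pearson r with Mm00472168_m1 on the left and Mm00484110_m1 on the right, over deviations from group means, with a line at the r of -0.15 between the 2 assays. The highest r was 0.59 on the left and 0.74 on the right, among 193 assays each.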

How the data were processed

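Raw threshold cycles of 224 assays in 40 colonic mucosa samples were taken from the deposited table, whose header calls it a truncated example. Per the labels' protocols, total RNA was run on a customized TaqMan OpenArray. The threshold setting is not given in the sources used here. Groups and replicate numbers come from the labels. Ct of exactly 40 (405 wells in 21 assays) and 156 values within 2e-06 cycles of the mean of their group's remaining values (for 3 of them, of all but 1) were left missing, except that such filled-in values stayed in the sample median. No samples were identical: the closest were germ-free replicates 22 and 31, with a median absolute difference of 0.224, where the median over pairs of samples was 0.581.

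CEC and Nissle were compared with limma 3.58.1 (R 4.3.3; lmFit and eBayes, 1 fit over 4 groups, two-sided, Benjamini-Hochberg over 214 assays with at least 5 measured samples in both groups, threshold 0.05). The steps were tested on simulated data. Correlations were tested by permutation (scipy 1.17.1, numpy 2.4.6), exact under 10 samples. Assays named for likeness were the 3 highest and the lowest by r of deviations and the 2 highest by r of plain values. The 2 assays and all rules were chosen with earlier results of these data known. Planned gene lists and cell type markers were not used, since the files pair no IDs with genes; for the same reason the labelled tissue could not be checked by its markers. Alternatives were other normalizers, missing-value rules and filters, other fits, and samples left out. The 10 samples per group limit the precision.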

Additional observations from a re-analysis of the deposited data

Results flagged for a closer look

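In 5 of 16 groups of values checked, the gap between the lowest or highest sample and its nearest neighbour, divided by the group's whole range, was above Dixon's 95% critical value, where chance flags about 1 group in 20. Mm00472168_m1 was 2.40 log2 units in conventional replicate 5, the lowest of its group, and the within-sample difference of the 2 assays was -0.019 cycles in the same sample. These 2 flags are not independent, since the difference is made from both assays. The 5 of 16 thus cannot be weighed directly against 1 in 20. The within-sample difference in CEC replicate 6 was -5.38 cycles. For Mm00484110_m1, germ-free replicate 10 was lowest at 2.03 log2 units and Nissle replicate 7 was highest at 3.06.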

How the results depend on the processing

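For Mm00472168_m1 the differences between groups kept their direction under every normalizer and with each sample left out. CEC minus Nissle ran from -0.91 to -0.46 with 1 sample left out and from -1.13 to -0.31 over the other alternatives, and never passed. For Mm00484110_m1 the differences from germ-free and conventional samples kept their direction too, but conventional was -0.66 against germ-free and -0.076 against CEC without normalization, and -0.46 against Nissle when normalized to the 10 most stable assays. Its CEC minus Nissle difference turned to 0.10 with these 10 assays to 0.043 with sample quality weights and to 0.0021 without both CEC replicates 6 and 8, and ran from -0.17 to 0.14 with 1 sample left out.

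The count of assays called between the strains, 7, was 3 with the 10 stable assays, 0 in a fit of the 2 groups alone (limma, 23 assays at an unadjusted p under 0.05), 19 with sample quality weights, 3 without both CEC replicates 6 and 8 and 2 without Nissle replicates 4 and 5 together, and 2 to 7 with 1 sample left out. With the replicate number as a block (replicate block, over CEC, Nissle and conventional samples) it was 3, and the member differences stayed at -0.71 and -0.03 and did not pass. Same-numbered samples deviated together (r over 0.1) in 1 of 10 pairs of CEC and Nissle, 7 of 10 of CEC and conventional (median r 0.20) and 3 of 10 of Nissle and conventional, and 1, 4 and 1 of 10 correlated best with their own number. Not every pair passed in any comparison, so the numbers were not taken to pair the samples. A partial pairing would fail this rule as well, and whether there was one was not tested.

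Without normalization, where the amount of template enters both Ct values, r of the pair was 0.64 in CEC samples, 0.73 in Nissle samples (permutation test, adjusted p = 0.0345) and 0.49 over all deviations (permutation within groups, adjusted p = 0.0345), and with the 10 stable assays r over deviations was 0.083. With 1 sample left out r ran from 0.16 to 0.57 in germ-free, from -0.55 to 0.69 in CEC, from -0.14 to 0.39 in Nissle and from -0.71 to 0.76 in conventional samples, and from -0.32 to 0.086 over deviations. It was 0.54 in CEC samples without both CEC replicates 6 and 8, an alternative chosen after seeing the data, and -0.14 without Nissle replicate 7. The cause of these changes was not tested.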
